A study of Mus musculus with 6 samples.

Results

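Iron export, iron storage and heme breakdown were followed through 9 genes: the iron exporter gene Slc40a1, the iron transporter genes Slc11a1 and Slc11a2, the transferrin receptor gene Tfrc, the ferritin genes Fth1 and Ftl1, the ferroxidase gene Cp, the heme oxygenase gene Hmox1 and the iron regulator gene Ireb2. They were chosen by name, with earlier results of these data known. Of the 9, 8 were measured, of 19938 genes tested in all. Slc11a1 is not analysed here. RNA came from CD11b+Gr-1+ cells, which the labels call hepatic myeloid-derived suppressor cells, obtained by sorting liver cells of C57BL/6 mice in which EL4 tumours, a transplantable mouse lymphoma, had grown. One group received concanavalin A (Con A), a lectin from jack beans that stimulates T cells and is used to cause acute hepatitis in mice, and gave 3 arrays. The other received PBS, is called untreated in some labels, and gave 3 arrays. Cells were taken 3 hours after injection in both groups, and the mice of both groups carried the tumour, so no tumour-free liver enters the comparison. The dose of Con A is given as 12.5 mg/kg in one label and as 12.5 ug/kg in another, and remains unsettled. The sources used here do not give the age of the mice. The labels name 3 mice per group but do not tie each array to 1 mouse, and the p-values therefore cover the spread among these samples, part of which may be technical.

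Myeloid cells take up iron bound to transferrin through the transferrin receptor, and macrophages also recover iron from the heme of ingested red cells. Heme oxygenase opens the heme ring and frees the iron, which is stored inside ferritin shells or leaves the cell through ferroportin, the product of Slc40a1 and the known iron exporter of mammalian cells. Iron regulatory proteins bind the mRNAs of ferritin, ferroportin and the transferrin receptor when iron is scarce. They act mainly on the translation of ferritin and ferroportin and on the stability of transferrin receptor mRNA. An array measures the amount of mRNA and not its translation.

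Levels are the deposited log2 values, on which a difference of 1 is 2-fold. Differences are Con A minus PBS, with 95% intervals and adjusted p from limma's moderated test (Benjamini-Hochberg over all 19938 genes, threshold 0.05). The median of an array was 7.05 to 7.08, and no array had a value above 14.3. Arrays can compress differences near the top and the bottom of the scale, and how far they did so here was not tested. The genes that define the sort were bright: Itgam, which encodes CD11b, averaged 12.77 ± 0.04 after Con A and 12.92 ± 0.15 after PBS, and Ly6g, part of the Gr-1 epitope, averaged 13.50 ± 0.05 after Con A and 13.59 ± 0.09 after PBS (SD, n = 3 each). Some arrays stood apart from the others of their group in the gene lists described below. Con A replicate 2 did so in the Kupffer cell and hepatocyte lists, and PBS replicate 3 in the heme handling and transcription factor lists. Con A replicate 1 was lowest in the heme handling and monocytic lists, with means of -0.31 and -0.98 relative to the PBS mean.

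Of the 8 genes, only Slc40a1 passed the test, and it was 2.29-fold lower after Con A. The transferrin receptor, both ferritins, ceruloplasmin, heme oxygenase 1, the divalent metal transporter and Ireb2 did not pass. None of these 7 had an unadjusted p under 0.05 by limma (0 of 7), against 4926 of all 19938 genes tested. One gene of 8 is 12.5%, close to the 11.8% of all genes tested that passed in either direction (7.22% lower and 4.59% higher after Con A). The median difference of the 8 genes was 0.09, against 0.02 for all genes tested. No filter on low values was used, so each of the 8 was tested.

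**Figure D1:**
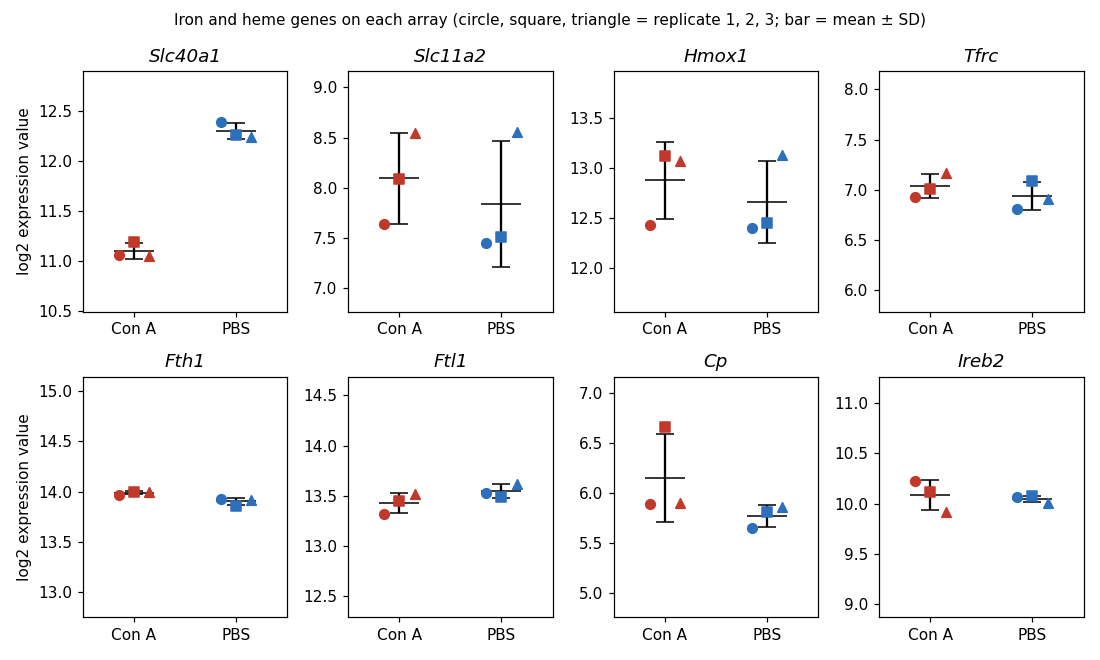
Deposited log2 values of the 8 genes on each array, with Con A at the left and PBS at the right of each panel; symbols mark replicates 1 to 3, and bars give the mean ± SD (n = 3 per group). Each panel spans the same height on the log2 axis. Slc40a1 lies between 11.05 and 11.19 after Con A, apart from 12.24 to 12.39 after PBS, while Hmox1 and Slc11a2 spread widely within both groups.

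Ferroportin transcripts gave the clearest difference. Slc40a1 (probe set 10354374) stood at 11.06, 11.19 and 11.05 in Con A replicates 1, 2 and 3, against 12.39, 12.26 and 12.24 in PBS replicates 1, 2 and 3. All 3 Con A arrays were below all 3 PBS arrays, and the arrays within each group lay close together (11.10 ± 0.08 after Con A and 12.29 ± 0.08 after PBS; SD, n = 3 each). The difference was -1.19 (SE 0.08, 95% interval -1.38 to -1.01), with an adjusted p of 0.000561 by limma. It was the 95th largest fall among the 1440 genes that passed the test and were lower after Con A. Slc40a1 was 1 of 172 genes (0.863% of those tested) that passed and were lower by at least 2-fold. Without PBS replicate 3 and Con A replicate 2, the difference was -1.27 (adjusted p = 0.00264 by limma).

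The change of Slc40a1 was also set against each of the other 7 genes within the same arrays. The log2 ratio of Slc40a1 to Fth1 shifted by -1.28 (SD 0.07 in each group), that to Ftl1 by -1.08 and that to Hmox1 by -1.41 between Con A and PBS. Against the remaining genes the shift ranged from -1.23 for Ireb2 to -1.57 for Cp. In all 7 ratios the groups did not overlap. The two-sided exact permutation test over the arrays gave p = 0.1 for each, before and after adjustment over the 7 ratios, which is the smallest value that 3 arrays against 3 allow, so it could not pass. The 7 ratios share the Slc40a1 values and are given as a description.

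The 3 genes whose profile over the 6 arrays lay nearest to that of Slc40a1, by root mean square distance after centring each gene on its own mean, were Rgs3 (distance 0.041 on the log2 scale), S1pr5 (0.065) and Hdac4 (0.078). Rgs3, a regulator of G-protein signalling, stood at 10.39, 10.47 and 10.36 after Con A, against 11.70, 11.55 and 11.64 after PBS. S1pr5, a receptor for sphingosine-1-phosphate, and Hdac4, a histone deacetylase, were lower after Con A by differences of -1.10 and -1.27 (adjusted p = 0.000954 and 0.000561 by limma). These likenesses were found by searching all genes over 6 arrays and are a description of those arrays.

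Iron uptake genes among the 8 did not pass. Tfrc, the receptor for transferrin-bound iron, stood at 6.93, 7.01 and 7.17 after Con A, against 6.81, 7.09 and 6.91 after PBS. The groups overlapped and the levels lay near the array median, with a difference of 0.10 (95% interval -0.14 to 0.34, adjusted p = 0.612 by limma). Slc11a2, which encodes the divalent metal transporter DMT1 that carries iron out of endosomes, stood at 7.64, 8.09 and 8.55 after Con A, against 7.45, 7.51 and 8.56 after PBS. PBS replicate 3 was as high as the highest Con A array, and the difference was 0.25 with a wide interval (-0.52 to 1.03, adjusted p = 0.702 by limma). Leaving out PBS replicate 3 gave a difference of 0.61 for Slc11a2 and leaving out Con A replicate 3 gave 0.03; neither passed the test.

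Ferritin transcripts were among the brightest values on the arrays. Fth1, the heavy chain that oxidises iron as it enters the ferritin shell, stood at 13.97, 14.00 and 14.00 after Con A, against 13.93, 13.86 and 13.92 after PBS. The Con A arrays lay just above the PBS arrays without overlap, but the difference was 0.09 and did not pass (95% interval -0.07 to 0.24, adjusted p = 0.492 by limma). Ftl1, the light chain that helps iron to mineralise inside the shell, stood at 13.32, 13.45 and 13.52 after Con A, against 13.53, 13.49 and 13.62 after PBS. Its difference was -0.12 and its groups overlapped (95% interval -0.31 to 0.08, adjusted p = 0.45 by limma). Both levels lay within 1 of the highest array value. Ferritin genes have many near-identical processed copies in the mouse genome, and 4 further rows that carry Ftl1 together with other symbols were not used, so signal from copies cannot be told apart from that of the parent genes.

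Cp encodes ceruloplasmin, a copper enzyme that oxidises iron as ferroportin releases it. It stood at 5.89, 6.66 and 5.90 after Con A, against 5.65, 5.81 and 5.86 after PBS. These values lay below the array medians, and without detection calls the expression of Cp in these cells is not established. The groups did not overlap, by a margin of hundredths, and Con A replicate 2 lay well above the other arrays. The difference was 0.38 (95% interval -0.09 to 0.85, adjusted p = 0.309 by limma), and without Con A replicate 2 it was 0.13. Hepatocyte genes moved on the same array: the mean of 14 hepatocyte markers lay 0.72 above its PBS mean in Con A replicate 2, whereas Con A replicates 1 and 3 were each 0.02 above that mean, and their part in the Cp values was not tested.

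Separation of the arrays without a passing test was common. In 3 of the 8 genes (Slc40a1, Fth1 and Cp), or 37.5%, the groups did not overlap, against 29.9% of all genes tested.

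Heme oxygenase 1, the inducible enzyme that opens the heme ring, varied more within the groups than between them. Hmox1 stood at 12.43, 13.12 and 13.07 after Con A, against 12.40, 12.45 and 13.13 after PBS. The highest of the 6 values was that of PBS replicate 3, and Con A replicate 1 lay below PBS replicate 2. The difference was 0.21 (12.87 ± 0.38 after Con A and 12.66 ± 0.41 after PBS, SD, n = 3 each; 95% interval -0.36 to 0.79, adjusted p = 0.654 by limma). It was 0.09 when Con A replicate 2 was left out and 0.45 when PBS replicate 3 was, and neither passed.

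Hmox1 and Slc11a2 shared their 3 highest arrays, though not the order among them. These were PBS replicate 3 and Con A replicates 2 and 3, which were highest for 6.1% of all genes tested. Spic, a transcription factor that heme induces in the macrophages that clear red cells, had the same 3 arrays highest. Its levels were 7.93, 9.19 and 9.71 after Con A, against 8.15, 8.10 and 10.33 after PBS, and its difference was 0.08 (95% interval -1.48 to 1.64, adjusted p = 0.962 by limma). It was -0.04 when Con A replicate 2 was left out and 0.81 when PBS replicate 3 was, and neither passed. Of the 64 other iron and heme genes described below, 8 had these arrays highest. They were Spic, Nfe2l2, Bach1, Atf4, Blvrb, Steap4, Hamp and the zinc and iron importer gene Slc39a14. Markers outside these lists had them highest as well: the hepatocyte genes Alb, Fgb and Ahsg and the Kupffer cell genes C1qb and C1qc. This pattern was picked out after the values were seen and has no test.

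Ireb2 encodes iron regulatory protein 2, which binds the iron-responsive elements of ferritin and transferrin receptor mRNAs. It stood at 10.22, 10.11 and 9.92 after Con A, against 10.06, 10.07 and 10.01 after PBS. The PBS arrays fell inside the Con A range, and the difference was 0.04 (95% interval -0.18 to 0.25, adjusted p = 0.855 by limma). Of the 7 genes that did not pass, 6 had 95% intervals that stayed within 2-fold in either direction, the exception being Slc11a2. Such intervals were common, with 92.7% of all genes tested inside that range.

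**Figure D2:**
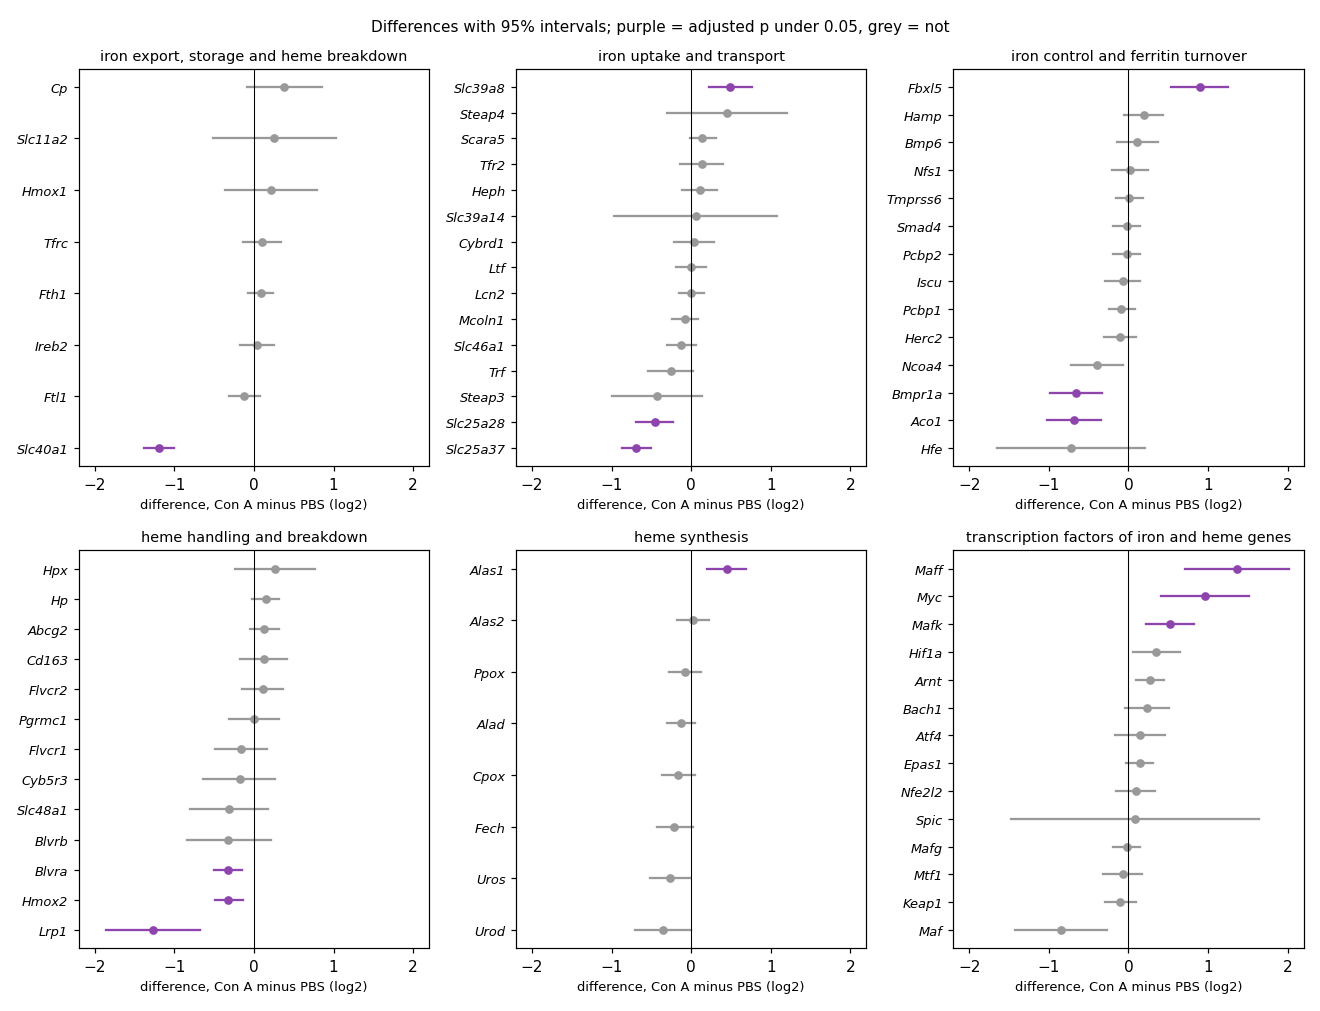
Differences between Con A and PBS on the log2 scale (horizontal axis) with 95% intervals of limma's moderated fit, for the 8 genes and for 64 other iron and heme genes in 5 lists; purple marks an adjusted p under 0.05. Slc40a1 at -1.19 is the one purple entry of its panel. In the others, Maff, Lrp1, Myc and Fbxl5 are the purple entries with the largest differences. Slc25a37 is the only one of those panels' purple entries that passed in every fit with 1 array left out.

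Beyond these 8 genes, 64 of 67 genes in 5 lists of iron and heme handling were measured, of which 6 rose and 7 fell after Con A. These 13 are 20.3%, against 11.8% of all genes tested, and the median difference of the 64 genes was -0.01, against 0.02. The share over all genes includes genes at low levels, and the part of level in the difference between these shares was not tested. The lists were also chosen with earlier results of these data known. The count depended on the arrays used. It was 1 when PBS replicate 1 was left out and 1 when Con A replicate 2 was. It was 5 without any one of Con A replicate 1, Con A replicate 3 and PBS replicate 2, and 12 without PBS replicate 3. With both Con A replicate 2 and PBS replicate 3 left out it was 9. The direction of the 13 genes did not change in any of these fits. Slc25a37 was the 1 of the 13 that passed in every fit with 1 array left out.

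Of 14 measured genes of iron control and ferritin turnover, 1 rose and 2 fell (21.4%, against 11.8% of all genes tested). Their median difference was -0.05. Fbxl5, the ubiquitin ligase subunit that marks iron regulatory proteins for destruction when iron is present, stood at 12.30, 12.51 and 12.37 after Con A, against 11.44, 11.22 and 11.83 after PBS. All 3 Con A arrays were above all PBS arrays, and the rise was 0.90, or 1.86-fold (95% interval 0.54 to 1.25, adjusted p = 0.01 by limma). Its call was lost without Con A replicate 2 (adjusted p = 0.0515 by limma) and without PBS replicate 1 (0.0533). Aco1, which encodes iron regulatory protein 1 and serves as cytosolic aconitase when iron is present, stood at 8.38, 8.49 and 8.64 after Con A, against 9.04, 9.0 and 9.51 after PBS. The groups did not overlap, and Aco1 fell by 0.68 (adjusted p = 0.024 by limma). Its call was lost without Con A replicate 1 (adjusted p = 0.0796), Con A replicate 2 (0.0919) or PBS replicate 1 (0.0591). Bmpr1a, a receptor for bone morphogenetic proteins, which control hepcidin in hepatocytes, fell by 0.66 (adjusted p = 0.0237 by limma), and missed the threshold in 4 of the 6 fits with 1 array left out. Ncoa4, the receptor that carries ferritin to its breakdown in lysosomes, had a difference of -0.40 that did not pass (adjusted p = 0.122 by limma).

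Among 15 genes of iron uptake and transport, 1 rose and 2 fell (20.0%, against 11.8% of all genes tested). The median difference was 0.00, and both genes that fell encode mitochondrial iron importers. Slc25a37, mitoferrin 1, stood at 10.09, 10.19 and 10.26 after Con A, against 10.91, 10.84 and 10.86 after PBS. The groups were well separated, and Slc25a37 fell by 0.69, a 1.62-fold difference (95% interval -0.87 to -0.51, adjusted p = 0.00196 by limma). Slc25a28, mitoferrin 2, stood at 9.64, 9.49 and 9.68 after Con A, against 10.09, 10.19 and 9.89 after PBS. It fell by 0.46 (adjusted p = 0.0251 by limma), and passed only without PBS replicate 3 among the 6 fits with 1 array left out (adjusted p up to 0.0989). Slc39a8, an importer of zinc, manganese and iron, stood at 7.15, 7.08 and 7.31 after Con A, against 6.56, 6.90 and 6.59 after PBS. The rise of 0.49 (adjusted p = 0.031 by limma) held only without PBS replicate 2 among those fits (adjusted p up to 0.118). The levels of Slc39a8 lay near the array medians, and a filter on low values, tried as an alternative, dropped this gene. Lcn2 and Ltf, granule proteins of neutrophils that bind iron carriers and iron, differed by 0.00 each at levels near 13.9 and 13.8, close to the top of the scale.

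Heme handling genes other than Hmox1 were measured in 13 cases, of which 3 fell and 0 rose (median difference -0.16). The share that passed was 23.1%, against 11.8% of all genes tested. Lrp1, an endocytic receptor that takes up heme bound to hemopexin among many other ligands, stood at 9.23, 10.01 and 10.14 after Con A, against 11.23, 10.73 and 11.24 after PBS. Con A replicate 1 was the lowest by a wide gap, and Lrp1 fell by 1.27, a 2.41-fold difference (95% interval -1.86 to -0.68, adjusted p = 0.0176 by limma). The call was lost without Con A replicate 2 (adjusted p = 0.0517 by limma), without PBS replicate 1 (0.0833) and with both Con A replicate 2 and PBS replicate 3 left out (0.0633).

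Hmox2, the constitutive heme oxygenase, stood at 10.89, 10.97 and 11.02 after Con A, against 11.23, 11.25 and 11.35 after PBS. Blvra, a biliverdin reductase that acts on the product of heme oxygenase, stood at 8.06, 8.02 and 8.0 after Con A, against 8.26, 8.36 and 8.44 after PBS. Both had separate groups and fell by 0.32 (adjusted p = 0.0355 and 0.0337 by limma), and both missed the threshold in all 6 fits with 1 array left out, where adjusted p reached 0.116 and 0.107. Blvrb, the second biliverdin reductase gene, and Slc48a1, a heme transporter of lysosomes, had differences of -0.32 and -0.31 that did not pass (adjusted p = 0.454 and 0.428 by limma). Both were highest in PBS replicate 3, at 11.21 and 12.19, and without that array their differences were -0.08 and -0.11.

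Heme synthesis had 1 rise among 8 measured genes and 0 falls (median difference -0.15). This is 12.5%, close to the 11.8% of all genes tested that passed. Alas1, the enzyme of the committed step in cells other than red cell precursors, stood at 12.65, 12.74 and 12.63 after Con A, against 12.09, 12.15 and 12.44 after PBS. The groups did not overlap and the rise was 0.45 (95% interval 0.20 to 0.69, adjusted p = 0.0327 by limma), which was lost in 5 of the 6 fits with 1 array left out and held without PBS replicate 3. The erythroid form Alas2 lay below the array medians, with a difference of 0.02 (adjusted p = 0.909 by limma).

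Among 14 transcription factors of iron and heme genes, 3 rose and 0 fell (21.4%, against 11.8% of all genes tested). Their median difference was 0.14. Maff and Mafk, small Maf proteins that pair with NRF2 or BACH1 on the antioxidant elements of heme oxygenase and ferritin genes, rose by 1.36 and 0.52 (adjusted p = 0.0206 and 0.0418 by limma). Maff stood at 8.14, 8.63 and 9.01 after Con A, against 6.85, 7.06 and 7.76 after PBS, with no overlap. Myc, known to repress ferritin heavy chain and to induce Ireb2 and Tfrc in other cell types, rose by 0.96 (adjusted p = 0.0404 by limma), while Fth1, Ireb2 and Tfrc had the values given above.

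The partner genes Nfe2l2, which encodes NRF2, and Bach1, which encodes the heme-sensing repressor of Hmox1, had differences of 0.09 and 0.23 and did not pass (adjusted p = 0.679 and 0.284 by limma). Of the 6 fits with 1 array left out, the calls of Maff, Mafk and Myc were lost in 4, 5 and 5, where adjusted p reached 0.0867, 0.148 and 0.139. Maff kept its call in the fits that left out Con A replicate 1 or PBS replicate 3, and Mafk and Myc kept theirs without PBS replicate 3.

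**Figure D3:**
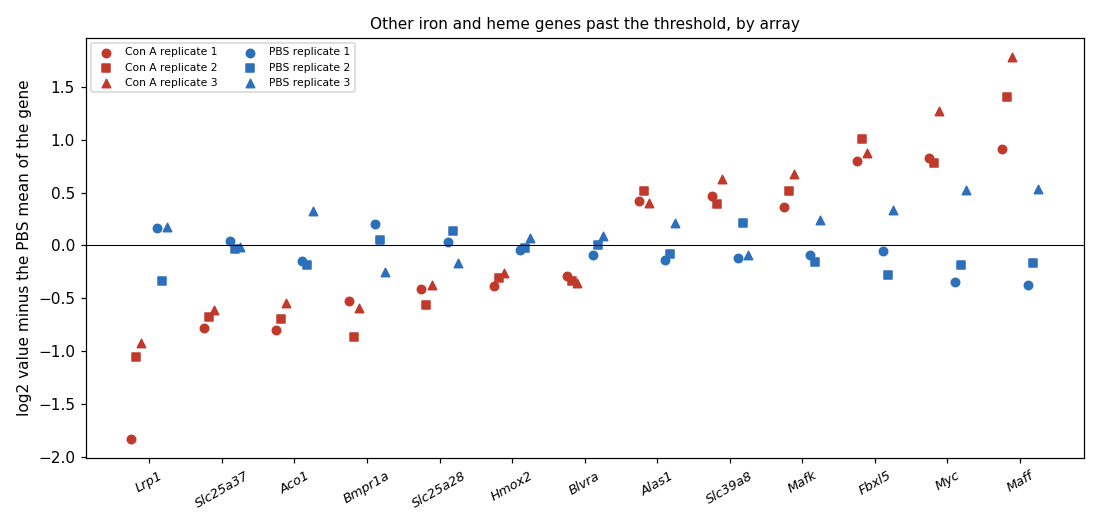
The 13 other iron and heme genes past the threshold, as log2 values of each array minus the PBS mean of the gene (vertical axis), with Con A at the left and PBS at the right of each gene; symbols mark replicates. Lrp1 is lowest in Con A replicate 1, and PBS replicate 3 is the highest PBS array for Maff, Myc, Fbxl5 and Aco1.

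Ferroportin is also a marker of tissue macrophages, and marker genes of the cells that the sort could hold were measured beside it. Of 16 Kupffer cell markers, 1 rose and 2 fell (18.8%, against 11.8% of all genes tested). Their median difference was 0.30. Mrc1, the mannose receptor gene, rose by 1.69, while Nr1h3, which encodes the sterol-sensing receptor LXR alpha, fell by 1.13 and Cd68, a lysosomal protein gene of macrophages and monocytes, fell by 0.73 (adjusted p = 0.0202 by limma, and 0.082 without PBS replicate 1). The mean of the list lay at -0.41, 0.86 and 0.13 relative to its PBS mean in Con A replicates 1, 2 and 3, against -0.18, 0.04 and 0.14 in PBS replicates 1, 2 and 3. Its groups overlapped and Con A replicate 2 was the highest array. The Con A minus PBS difference of the list mean was 0.20 with all arrays and -0.14 without Con A replicate 2. The part of these markers in the Slc40a1 value was not tested.

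The defining Kupffer markers Clec4f, Timd4, Vsig4 and Cd5l had differences of 0.69, 0.66, 1.23 and 0.95, none of which passed (adjusted p = 0.421, 0.249, 0.37 and 0.468 by limma). Clec4f stood at 7.19, 9.18 and 7.62 after Con A, against 7.05, 7.58 and 7.27 after PBS. Con A replicate 2 was the highest array for all 4 genes, and without it their differences were 0.10, 0.28, 0.41 and 0.11. Other members lay lower on all 3 Con A arrays than on all 3 PBS arrays without passing: Id3, Csf1r and Siglec1 had differences of -0.83, -0.78 and -0.40 (adjusted p = 0.111, 0.0764 and 0.09 by limma).

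Of 12 monocytic markers, 5 fell, 2 rose and 5 did not pass (median difference -0.71). The share that passed was 58.3%, against 11.8% of all genes tested. The largest differences were those of F13a1, a coagulation factor subunit of monocytes, which fell by 2.16, and the chemokine receptor gene Ccr2, which fell by 2.00. Irf8, a transcription factor of monocyte development that interferon-gamma also induces, and Cd14, a coreceptor for lipopolysaccharide, rose by 0.98 and 0.82 (adjusted p = 0.0189 and 0.017 by limma), but Irf8 did not pass in 4 of the 6 fits that left out 1 array, nor Cd14 in 3 of them. The list mean lay at -0.98, -0.50 and -0.56 relative to its PBS mean after Con A, against 0.10, -0.25 and 0.15 after PBS, and the groups did not overlap. The part of this shift in the Slc40a1 value was not tested. Fewer cells of a type and less RNA per cell cannot be told apart in sorted bulk samples.

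Granulocytic markers had 2 falls and 0 rises among 15 genes (median difference 0.00), Mmp9 by 0.58 and Padi4 by 0.55. These 2 are 13.3%, close to the 11.8% of all genes tested that passed. Padi4 lost its call in 5 of the 6 fits with 1 array left out (adjusted p up to 0.117). The largest differences of the list were upward and did not pass. Elane was higher by 0.76 and Mpo by 0.73 (adjusted p = 0.194 and 0.0653 by limma), and the groups overlapped for Elane but not for Mpo. The granulocytic list mean lay between -0.02 and 0.10 after Con A, against -0.06 and 0.06 after PBS. Erythroid markers had 1 rise among 7 genes (14.3%, near the 11.8% of all genes tested). It was the carbonic anhydrase gene Car2, by 0.53, which lost its call in 4 of those fits (adjusted p up to 0.119). Their list mean lay between 0.15 and 0.19 after Con A, against -0.02 and 0.02 after PBS. Their levels were low, with list means of 6.48 to 6.51 after Con A and 6.30 to 6.34 after PBS, below the array medians. Hepatocyte markers had 0 of 14 genes past the threshold by limma, against 11.8% of all genes tested. At an unadjusted p under 0.05 by limma there were also 0, against 4926 of all 19938 genes tested. Trf, Hp, Hpx and Hamp of this list also stand in the iron and heme lists. Hp (means 13.07 after Con A and 12.92 after PBS) and Trf (11.89 and 12.15) lay well above Alb (9.76 and 8.90).

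**Figure D4:**
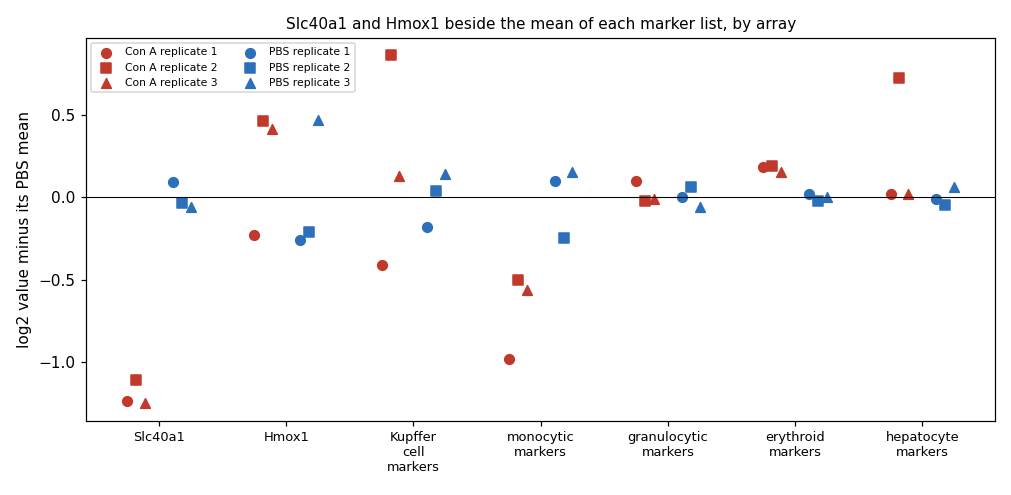
Slc40a1, Hmox1 and the means of 5 marker lists on each array, as log2 values minus their PBS mean (vertical axis), with Con A at the left and PBS at the right of each position; symbols mark replicates. Slc40a1 and the monocytic list are lower on all 3 Con A arrays. The Kupffer and hepatocyte lists are highest in Con A replicate 2, at 0.86 and 0.72.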

How the data were processed

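Values of a mouse Affymetrix gene array were used as deposited. They are log2 expression values made by the authors, and the submitters' processing notes name RMA and Partek without versions or settings. Per the labels' protocols, a kit for whole-transcriptome amplification was applied to total RNA before biotin labelling. The value table had 35556 rows, of which 21789 carried 1 gene symbol in the platform annotation; where rows shared a symbol, the one with the highest mean over the 6 arrays was kept, which left 19938 genes. No coordinates are printed, because the sources used here name no genome build.

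The test of Con A against PBS was limma 3.58.1 (R 4.3.3), with lmFit and eBayes, two-sided and without covariates, with Benjamini-Hochberg adjustment over all genes. Python 3.11.15, scipy 1.17.1 and matplotlib 3.10.9 made ratios and plots. The fit was also run on 5 simulated sets of 19938 genes, each with 200 genes changed and independent normal noise of moderated variance. It recovered 55.5% of genes changed by 0.5 and 97.2% of those changed by 1 (log2), and 5.96% of its calls were false. More genes passed in the real data, and the simulated noise held no outlying array. These rates are therefore not the power for genes that spread widely, such as Hmox1 and Slc11a2. The genes and lists were chosen with earlier results of these data known. Named genes were all those measured of the 9 and up to 4 genes past the threshold of each iron or heme list. Up to 2 genes past the threshold of each marker list, those with the largest differences, and the 3 nearest profiles were also named. Other genes were added as values. The number of arrays limits the precision. No detection calls were used.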

Additional observations from a re-analysis of the deposited data

How the results depend on the processing

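Slc40a1 stayed lower and past the threshold in all 15 alternatives (14 planned and 1 chosen after seeing the data), with differences from -1.27 to -1.15 and adjusted p up to 0.0227, in the unmoderated test. With 1 array left out it ranged from -1.24 to -1.15. The other 7 genes passed in none of their alternatives, and the 1 change of direction among 118 values was Ireb2, at -0.03 without Con A replicate 1 (range -0.03 to 0.12 with 1 array left out). Tfrc and Cp were dropped by the filter on low values and have no value there. The labels state no paired design, so the replicate numbers were not taken as pairs. Samples with the same number had correlated deviations of r = 0.23, -0.17 and 0.56 over all genes for numbers 1, 2 and 3. Samples with unlike numbers had r from -0.54 to 0.54. With 3 arrays per group these values cannot decide whether the numbers are pairs. With the replicate number as a block, Slc40a1 stood at -1.19 (adjusted p = 0.00108), 2539 genes passed in place of 2355, and 14 of the 64 other iron and heme genes passed in place of 13: Hmox2 and Blvra lost their calls (adjusted p = 0.0531 and 0.0672), and Steap3, Maf and Hfe gained one (0.0394, 0.00209 and just under the threshold). With 1 array left out, the count over all genes was lowest at 1140 (PBS replicate 1 left out) and highest at 2765 (PBS replicate 3 left out); leaving out Con A replicate 2 gave 1272 and Con A replicate 3 gave 1480. The count among the 64 genes ranged from 1 to 12. The unmoderated test gave 671 genes and 1 of the 64. Fits with arrays left out also hold fewer arrays, and the cause of these moves was not tested.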
